A study of Mus musculus with 24 samples.

Results

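Integrin genes were followed in the mouse mastocytoma line P815, a transformed mast cell line. The set holds 10 genes, Itga4, Itga5, Itga6, Itga9, Itgav, Itgal, Itgam, Itgb1, Itgb2 and Itgb7, which were found by their symbols among 55385 genes of the deposited table. RNA was sequenced in 8 groups of 3 libraries, 24 in all. SH_E2 and SH cells had been transfected with a mouse ESR1-specific short hairpin RNA, ICI_E2 and ICI cells received the antiestrogen ICI-182780, Tamo_E2 and Tamo cells received tamoxifen, and NC_E2 and NC cells had been transfected with negative control vectors. Groups with E2 in their name also received β-estradiol, and every treatment with a compound lasted 24 h. All groups grew in medium with fetal bovine serum, and the labels give no doses. No group is labelled as a vehicle control or as untransfected, and the ICI and Tamo groups are not labelled as carrying a vector. Nothing in the labels tells if replicates came from separate cultures, and the p-values below thus reflect only library-to-library spread, some of which may be technical. An arm below means the 6 libraries of one transfection or compound, with and without E2.

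Integrins are cell-surface receptors made of one α and one β subunit, and they tie cells to matrix proteins and to counter-receptors on other cells. Each α subunit leaves the endoplasmic reticulum only with a β partner, so the β subunits present limit which receptors can form: Itgb1 pairs with most matrix-binding α subunits, Itgb2 with the leukocyte subunits such as Itgal and Itgam, and Itgb7 with Itga4 or Itgae. In mast cells, integrins serve the homing of progenitors to tissues and the attachment of mature cells to fibronectin, laminin and vitronectin, and the receptor tyrosine kinase Kit raises their affinity from inside the cell.

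Library totals were 42.1 to 68.8 M estimated counts (median 54.2). The mast cell label was checked with 13 marker genes: Kit had 98.3 to 174.5 FPKM and Gata2 137.9 to 261.3 FPKM over the 24 libraries, whereas Fcer1a, the α chain of the high-affinity IgE receptor, stayed under 1 FPKM in each of them and its β chain Ms4a2 reached at most 1.203 FPKM. The summed level of these markers was 998 to 1220 FPKM in the SH arm, 796 to 1070 FPKM in the ICI and Tamo arms and 788 to 1050 FPKM in the NC arm. Of the 10 tested, Cpa3 was called higher in the SH arm than in the NC arm, and Tpsb2, Tpsab1, Cma1 and Srgn were called lower (edgeR, as below). Of all genes tested, 10.6% were called higher and 10.0% lower in that comparison. Neutrophil, T cell and B cell markers were all under 1 FPKM in every library. The macrophage list summed to 19.1 to 23.5 FPKM in the SH arm, 16.8 to 26.1 FPKM in the ICI and Tamo arms and 19.0 to 21.9 FPKM in the NC arm, nearly all of it from Cd68. The fibroblast list summed to at most 2.19 FPKM in any library. Of 4 megakaryocyte and platelet markers, Pf4 moved with the SH label, at 31.6 to 43.8 FPKM in the SH arm, against 4.90 to 10.96 FPKM in the other 18 libraries, while Gp1bb stayed under 0.25 FPKM in each library. Esr1, the gene the hairpin targets, was near the limit of detection, at 0.181 to 0.347 FPKM in the SH arm and 0.187 to 0.435 FPKM in the NC arm. Its difference on the log2(FPKM + 1) scale was −0.09, with p = 0.125 in an exact two-sided permutation test within E2 conditions whose smallest possible p was 0.005. Leaving out NC replicate 3 gave −0.13 with an exact permutation p of 0.02. The SH label is therefore used below as a label, without a measured loss of Esr1 RNA.

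In FPKM, P815 cells carried high levels of 3 β subunit RNAs and lower levels of every α subunit in the set. Itgb7 averaged 71.1 ± 13.6 FPKM (SD over 24 libraries), Itgb1 58.9 ± 6.91 FPKM and Itgb2 42.1 ± 6.73 FPKM. FPKM values are scaled per length, and the lengths and quantifier used are not stated. In SH_E2 replicate 1, Itga4 had 2072 estimated counts at 3.16 FPKM, against 12681 at 97.6 FPKM for Itgb7. Itga4 was thus scaled by the greater length, and the order across genes holds only for FPKM as deposited. Within the set, the α subunit highest in RNA was Itgal, the partner of Itgb2 in the leukocyte receptor for ICAM proteins. Itgal had a median of 17.1 FPKM over the 24 libraries (12.9 to 25.0 FPKM, SD 3.29). Itga2b, an α subunit outside the set, lay above it in the SH arm, as given below. Itga6, a laminin receptor subunit, averaged 7.67 ± 1.40 FPKM, and Itga5, the fibronectin receptor subunit, averaged 5.001 ± 0.69 FPKM. Itga4, which can pair with Itgb1 or Itgb7, averaged 3.81 ± 1.199 FPKM. Itga9 averaged 1.82 ± 0.44 FPKM and Itgav, the vitronectin receptor subunit, averaged 1.70 ± 0.35 FPKM.

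Not every step in this order held in each library. Itgb7 was above Itgb1 in 17 of 24 libraries, and Itga9 above Itgav in 14 of 24, so neither pair was separated beyond the spread. Itgb1 was above Itgb2 in 22 libraries, Itga6 above Itga5 in 23 and Itga5 above Itga4 in 18. The ranges did not overlap at the step between Itgb2 (lowest 35.2 FPKM) and Itgal (highest 25.0 FPKM), nor between Itgal (lowest 12.9 FPKM) and Itga6 (highest 10.6 FPKM). Itga4 was above Itga9 in all 24 libraries. Reads of Itga9 could not be separated with certainty, because Gm10157 and Gm2415 lie across it on the opposite strand and the strand protocol is not stated. Gm10157 had 4.95 to 27.5 FPKM. No other gene overlaps Itgal, Itgb1, Itgb2 or Itgb7 in the annotation used here.

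Itgam, the α subunit of the complement receptor that marks myeloid cells, was at the bottom. It was listed at 0 estimated counts in 22 of 24 libraries, with 6 estimated counts (0.017 FPKM) in SH replicate 1 and 4 estimated counts (0.010 FPKM) in SH replicate 3. At this depth no level beyond single fragments was detectable, and Itgam did not enter the tests. The other 9 genes passed the filter of 1 FPKM in at least 3 libraries, with at least 276 estimated counts in every library.

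**Figure D1:**
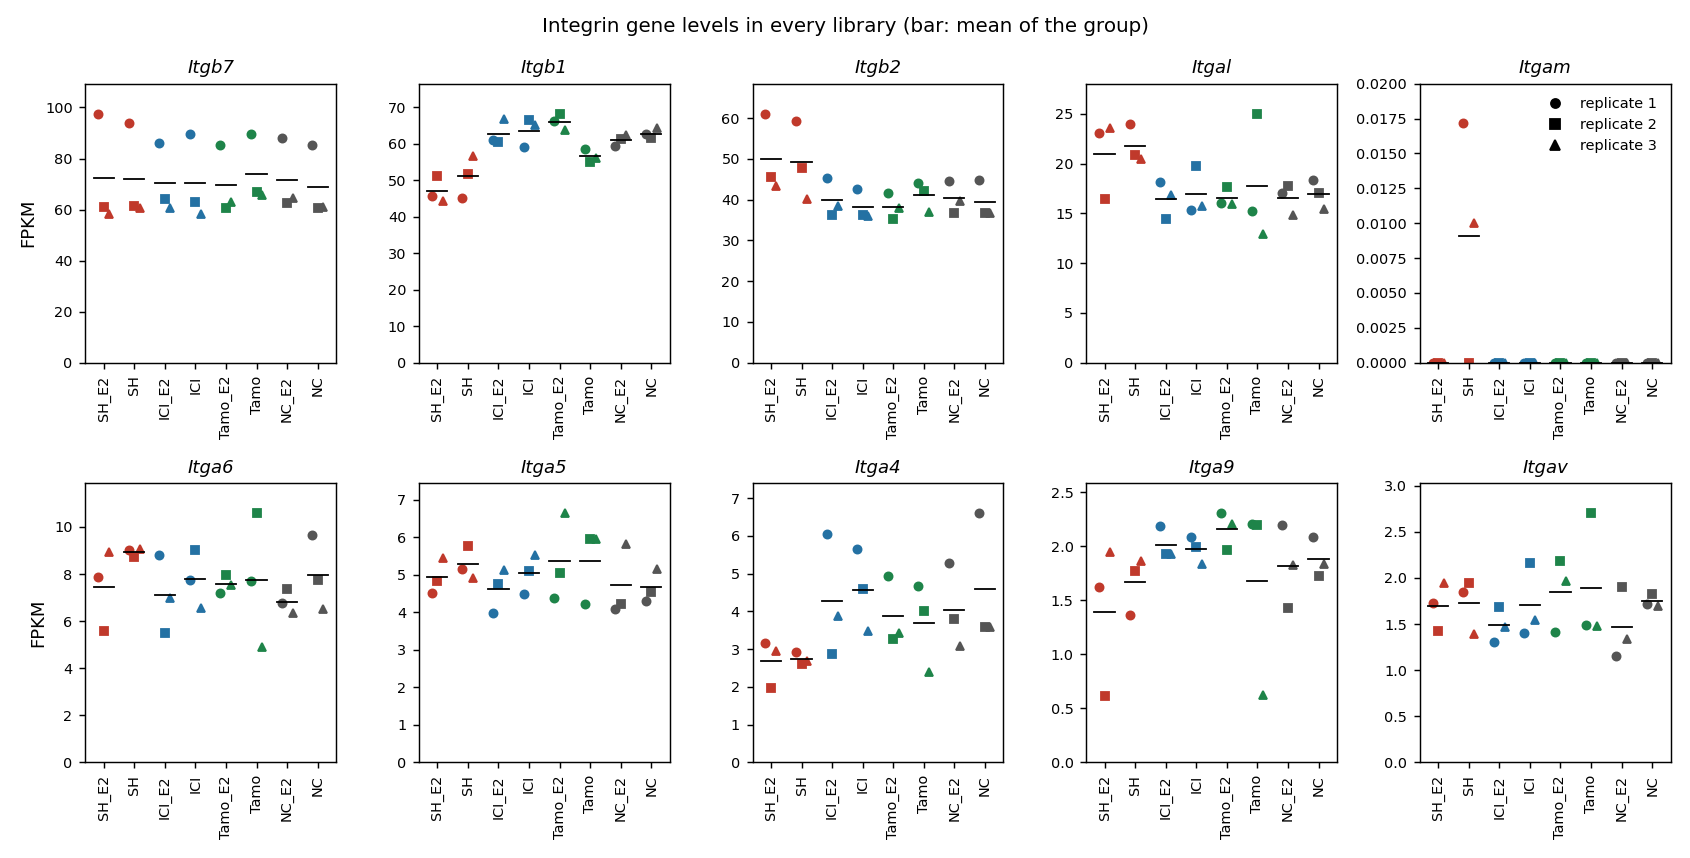
FPKM (linear axis, not the same range in each panel) of the 10 integrin genes in each of the 24 libraries, by group. Symbols mark the replicate number and bars the group mean. Itgb1 lies lower in SH_E2 and SH, Itga4 lies low in the same groups, and Itgb7 is highest in replicate 1 of every group.

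The RNA of each β subunit was set against the summed RNA of α partners listed for it. For Itgb1 the sum leaves out Itga10 and other partners, and for Itgb2 it leaves out the partners other than Itgal and Itgam. Itga4 was counted in full for both Itgb1 and Itgb7. Itgb1 was above the sum of Itga4, Itga5, Itga6, Itga7, Itga9 and Itgav in all 24 libraries, by 1.85 to 3.03 times. Its median ratio was 2.13 in the SH arm and 2.79 in the other 18 libraries. Itgb2 exceeded the sum of Itgal and Itgam by 1.68 to 2.89 times, with a median of 2.38 in the SH arm and 2.41 outside it. Itgb7 stood furthest from its partners: it exceeded the sum of Itga4 and Itgae by 12.9 to 31.5 times, with a median of 25.5 in the SH arm and 16.6 outside it. Itgae, the subunit that binds E-cadherin, reached at most 0.194 FPKM. These are ratios of deposited FPKM, which rest on gene lengths that are not stated, and no surface protein was measured.

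Promoter sequence is shown for the pair of genes called lower in SH, Itgb1 and Itga4, and for Itgam, the member with almost no RNA. RefSeq windows on GRCm38.p6 were found for 7 of the 10 genes and run over 250 bases before and 50 bases after the transcription start, 5′ to 3′ on the gene's strand. Capitals mark motif matches on either strand: GGGCGG (GC box, bound by Sp1), TGTGGT (RUNX) and GAGGAAG (an ETS-family site of the kind bound by PU.1). The windows are chr8:128685404-128685703 (+) for Itgb1, chr2:79255176-79255475 (+) for Itga4 and chr7:128062390-128062689 (+) for Itgam.
Itgb1: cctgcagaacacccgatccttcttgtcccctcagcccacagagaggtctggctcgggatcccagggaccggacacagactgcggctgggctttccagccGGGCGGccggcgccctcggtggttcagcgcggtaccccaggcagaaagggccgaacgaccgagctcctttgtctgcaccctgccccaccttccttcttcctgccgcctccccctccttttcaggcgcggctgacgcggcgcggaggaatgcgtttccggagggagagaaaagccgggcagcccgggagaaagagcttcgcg
Itga4: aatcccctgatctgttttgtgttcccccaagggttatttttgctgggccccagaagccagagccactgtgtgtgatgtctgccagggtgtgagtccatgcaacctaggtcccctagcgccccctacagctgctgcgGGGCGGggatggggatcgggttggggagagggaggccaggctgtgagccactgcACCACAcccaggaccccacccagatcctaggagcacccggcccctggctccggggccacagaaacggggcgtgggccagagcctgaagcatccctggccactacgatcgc
Itgam: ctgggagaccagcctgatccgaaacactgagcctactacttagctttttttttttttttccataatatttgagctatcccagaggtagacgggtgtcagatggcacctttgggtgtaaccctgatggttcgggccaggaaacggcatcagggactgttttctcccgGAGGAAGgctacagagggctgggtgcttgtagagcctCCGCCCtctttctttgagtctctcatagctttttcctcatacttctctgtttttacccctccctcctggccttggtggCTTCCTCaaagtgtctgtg

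The Itgb1 window held 1 GC box and none of the other motifs searched, and its GC content was 67.3%, against a median of 52.7% over 32851 promoter windows. The Itga4 window held 1 GC box and 1 RUNX match. The Itgam window held 2 PU.1 matches and 1 GC box. Over all windows, 35.7% held a GC box, 16.8% a RUNX match and 13.6% a PU.1 match. Itgav and Itgb7 had 1 PU.1 match each, Itga5 had 2 GC boxes, and Itga9 had 1 match to the AP-1 motif TGANTCA, found in 7.81% of windows. The RefSeq window of Itga9 lies inside the gene as the files delimit it, at a later start. The full palindromic estrogen response element occurred in 0.07% of windows and in none of these 7. The GATA motif AGATAA and the TATA box TATAAA were not in them either. A match is only a match of letters within 300 bases.

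Itgb1 was lower in SH cells whether or not E2 was present. Itgb1 (chr8:128685654-128733200, + strand, GRCm38), the common partner of the matrix-binding α subunits, had 45.8, 51.2 and 44.4 FPKM in SH_E2 replicates 1, 2 and 3, against 59.4, 61.3 and 62.3 FPKM in NC_E2 replicates. Without E2 it had 45.1, 51.8 and 56.7 FPKM in SH replicates, against 62.5, 61.5 and 64.2 FPKM in NC replicates. Every SH library lay below every NC library, and the highest of the SH arm was SH replicate 3. In edgeR's quasi-likelihood test over 12183 genes, the log2 fold change over both E2 conditions was −0.39 ± 0.065 (SE), or 23.5% less RNA (the size of the fitted −23.5%), with a Benjamini-Hochberg adjusted p of 0.000203. It was −0.42 ± 0.092 with E2 (edgeR adjusted p = 0.00506) and −0.35 ± 0.092 without E2 (edgeR adjusted p = 0.0181). The fold change with E2 minus that without E2 was −0.07, with a 95% interval of −0.34 to 0.20 and an edgeR adjusted p of 1.0. Itgb1 was lower in 6 of 6 same-numbered SH and NC pairs, by −0.49 to −0.18 on the log2 scale. The call without E2 ended when SH replicate 1 was left out (−0.26, edgeR adjusted p = 0.101) or NC replicate 3 (−0.33, adjusted p = 0.0724), in replicates 2 and 3 alone (−0.27, adjusted p = 0.173), with no filter on low values (adjusted p = 0.0868) and in a fit on those groups alone (adjusted p = 0.15). The call over both E2 conditions held in each of its 22 alternatives.

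Itga4 (chr2:79255426-79333123, + strand, GRCm38), which binds VCAM1 and fibronectin with Itgb1 and MAdCAM1 with Itgb7, was the α subunit of the set called lower in SH over both E2 conditions. It had 3.16, 1.97 and 2.96 FPKM in SH_E2 replicates, against 5.29, 3.79 and 3.07 FPKM in NC_E2 replicates. Without E2 it had 2.93, 2.62 and 2.67 FPKM in SH replicates, against 6.598, 3.58 and 3.59 FPKM in NC replicates. With E2 the groups overlapped, since SH_E2 replicate 1 lay above NC_E2 replicate 3, and without E2 they did not. Neither condition passed on its own. The log2 fold change was −0.64 ± 0.30 with E2 (edgeR adjusted p = 0.221) and −0.80 ± 0.30 without E2 (edgeR adjusted p = 0.114). Over both E2 conditions the log2 fold change was −0.72 ± 0.21 (edgeR adjusted p = 0.0195), and it was lower in 6 of 6 same-numbered pairs, by −1.17 to −0.05. This call ended without NC replicate 1 (−0.55, edgeR adjusted p = 0.0709), without NC_E2 replicate 1 (−0.60, adjusted p = 0.0598), without SH_E2 replicate 2 (−0.63, adjusted p = 0.0555), in replicates 2 and 3 alone (−0.51, adjusted p = 0.0732) and with limma on log2(FPKM + 1) (−0.49, adjusted p = 0.0558) or log2(FPKM + 0.1) (adjusted p = 0.0515).

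Itgb2 (chr10:77530252-77565686, + strand, GRCm38), the β subunit of the leukocyte integrins, had higher values in SH that did not pass the test against NC. It had 61.2, 45.7 and 43.5 FPKM in SH_E2 replicates, against 44.5, 36.7 and 39.7 FPKM in NC_E2 replicates. Without E2 it had 59.4, 47.8 and 40.3 FPKM in SH replicates, against 44.9, 36.9 and 36.7 FPKM in NC replicates. The arms overlapped, because SH replicate 3 and SH_E2 replicate 3 lay under replicate 1 of NC and NC_E2. Against the NC arm the log2 fold change was 0.26 ± 0.099 and did not pass (edgeR adjusted p = 0.0731), although Itgb2 was higher in 6 of 6 same-numbered pairs, by 0.13 to 0.46. It passed in 6 of 22 alternatives: without NC replicate 1 (edgeR adjusted p = 0.0462), without SH replicate 3 (adjusted p = 0.0293), without SH_E2 replicate 3 (adjusted p = 0.0463), with limma on log2(FPKM + 1) (adjusted p = 0.0476) or log2(FPKM + 0.1) (adjusted p = 0.0485), and with the replicate block (0.25, adjusted p = 0.00146). In these limma fits the median log2 fold change of all genes was 0.041 and 0.048, against −0.004 in edgeR. Itgal, the main partner of Itgb2, ran from 16.4 to 24.0 FPKM in the SH arm (median 22.0), against 14.9 to 18.4 FPKM in the NC arm (median 17.1). Its log2 fold change of 0.30 ± 0.13 did not pass either (edgeR adjusted p = 0.108), with 5 of 6 pairs higher, and passed only in a fit on the libraries of those arms alone (0.30, adjusted p = 0.0424) among its 22 alternatives.

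Of the 9 integrin genes tested, 1 was called without E2, 1 with E2 and 2 over both E2 conditions, all lower in SH. The share of all 12183 genes called was 9.07% without E2 (4.92% higher and 4.15% lower), 9.59% with E2 (5.30% higher and 4.28% lower) and 20.7% over both (10.6% higher and 10.0% lower). With 9 genes, the integrin counts are near these shares. The median log2 fold change of the 9 genes over both E2 conditions was 0.04, against −0.004 for all genes tested. Libraries of SH and NC with the same number deviated together in every pair (r of 0.164 to 0.337 over genes), so the fit with the replicate number as a block is given beside the comparison without E2. It called 3 integrin genes: Itgb1 (−0.35, edgeR adjusted p = 0.00262), Itga4 (−0.74, adjusted p = 0.00958) and Itgb2 (0.25, adjusted p = 0.0259). The same blocked fit called 2572 of the 12183 genes. Itga5, Itga6, Itga9, Itgav and Itgb7 were not called in any of these comparisons. Their log2 fold changes over both E2 conditions lay between −0.33 (Itga9) and 0.09 (Itga6), and the 95% interval of Itgb7, at −0.02, ran from −0.36 to 0.32. As the samples are bulk RNA, fewer cells that carry a transcript and less of it per cell cannot be told apart.

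**Figure D2:**
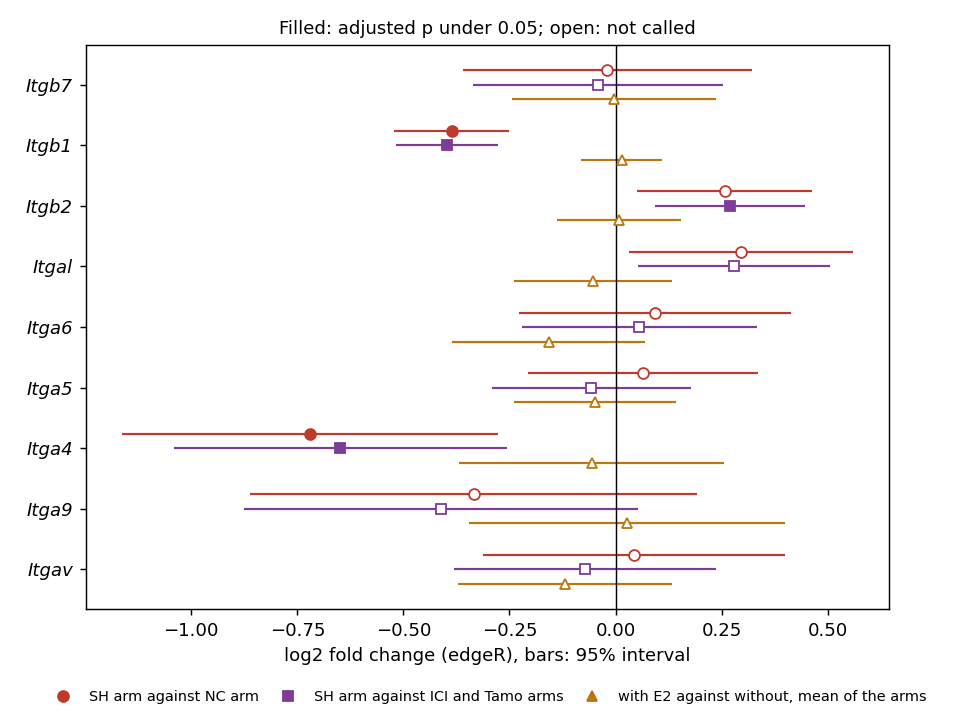
Log2 fold changes (x axis, with 95% intervals) of the 9 integrin genes tested: SH arm against NC arm, SH arm against the ICI and Tamo arms together, and libraries with E2 against those without. Itgb1 and Itga4 are filled as called in both SH comparisons, Itgb2 in the one against the antiestrogen arms, and the E2 values lie between −0.16 and 0.03.

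The ICI and Tamo arms gave a second set of libraries without the hairpin, and against them Itgb1 and Itga4 were again lower and Itgb2 was higher in SH. Both comparisons use the same SH libraries. Itgb1 had 60.96, 60.5 and 66.6 FPKM in ICI_E2 and 59.1, 66.4 and 65.2 FPKM in ICI replicates. It had 66.1, 68.3 and 63.7 FPKM in Tamo_E2 and 58.6, 55.02 and 56.0 FPKM in Tamo replicates. The SH arm (44.4 to 56.7 FPKM) overlapped these only through SH replicate 3, which lay above Tamo replicates 2 and 3. The log2 fold change of the SH arm against both antiestrogen arms was −0.40 ± 0.057 for Itgb1 (edgeR adjusted p = 2.5e-05), −0.65 ± 0.19 for Itga4 (adjusted p = 0.0135) and 0.27 ± 0.085 for Itgb2 (adjusted p = 0.0213). Itga4 had a range of 1.97 to 3.16 FPKM (median 2.80) in the SH arm, against 2.39 to 6.04 FPKM (median 3.95) in the antiestrogen arms. Itgb2 had 40.3 to 61.2 FPKM (median 46.7) in the SH arm, against 35.2 to 45.4 FPKM (median 38.2). The Itgb2 call ended without SH replicate 1 (0.19, edgeR adjusted p = 0.108), without SH_E2 replicate 1 (0.19, adjusted p = 0.112) and in replicates 2 and 3 alone (0.19, adjusted p = 0.0633). With 3 of 9 genes called, the integrins stood near the 28.2% of all genes called here (14.8% higher and 13.4% lower), and Itgal did not pass (0.28 ± 0.11, edgeR adjusted p = 0.0619). Itgal passed in 6 of 28 alternatives: without Tamo replicate 2, where it was highest (0.35, edgeR adjusted p = 0.00257), without SH_E2 replicate 2 (adjusted p = 0.0255), without ICI replicate 2 (adjusted p = 0.0495), with limma on log2(FPKM + 1) (adjusted p = 0.0291) or log2(FPKM + 0.1) (adjusted p = 0.0295), and with the replicate block (0.29, adjusted p = 0.039).

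The balance of these β subunits differed with the SH label. The ratio of Itgb2 to Itgb1 FPKM had a median of 0.951 in the SH arm (0.711 to 1.34), against 0.615 in the other 18 libraries (0.516 to 0.767). Itgb2 exceeded Itgb1 in SH_E2 replicate 1 and SH replicate 1, and in no other library. The SH arm overlapped the rest through SH replicate 3. The ratio was not tested, since it restates the values of its genes.

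**Figure D3:**
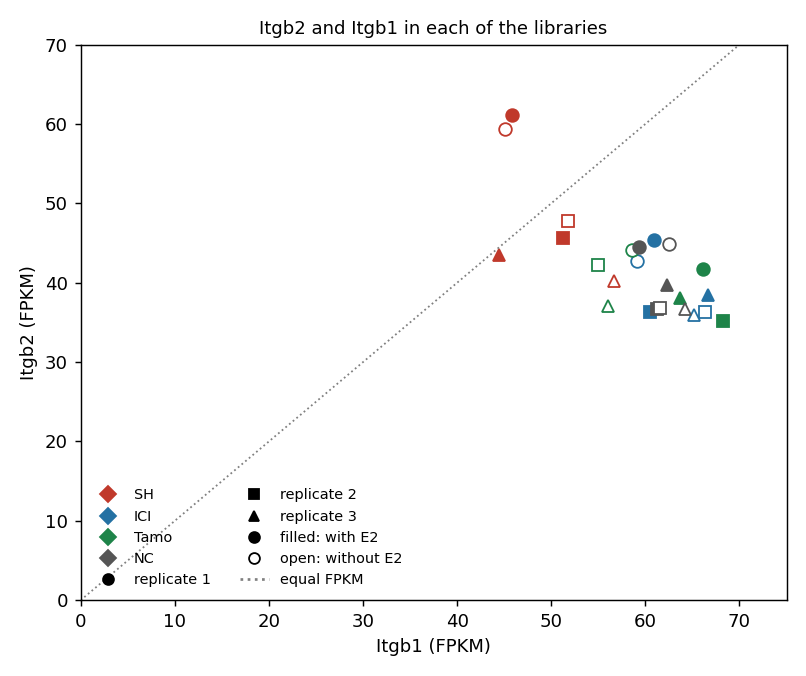
Itgb2 FPKM (y axis) against Itgb1 FPKM (x axis) in the 24 libraries, coloured by arm, with replicate numbers as symbols and E2 as fill. Of the SH arm, 5 libraries lie left of every other library, 2 of them above the line of equal FPKM, and SH replicate 3 (Itgb1 56.7, Itgb2 40.3 FPKM) lies among the rest. The ratio runs over 0.711 to 1.34 in the SH arm and 0.516 to 0.767 outside it.

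ICI-182780, which blocks and degrades estrogen receptors, and tamoxifen, a selective receptor modulator, left the integrin genes without a call. In edgeR, 0 of 9 genes were called for ICI_E2 against NC_E2, Tamo_E2 against NC_E2, ICI against NC, Tamo against NC, ICI_E2 against Tamo_E2 and ICI against Tamo, and 0 had an unadjusted p under 0.05. The share of all genes called was 0.00821% (1 gene) for ICI against NC and for Tamo against NC, and 0% in the other comparisons of these groups. DESeq2 and limma also called 0 integrin genes in each. The log2 fold changes lay between −0.05 and 0.10 for ICI against NC and between −0.31 and 0.21 for Tamo against NC. The 95% intervals for ICI against NC were narrowest for Itgb1 (−0.18 to 0.21) and widest for Itga9 (−0.68 to 0.81). With 3 libraries a group, changes within these intervals cannot be set aside. The intervals are not a limit of detection for the adjusted test.

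E2, the hormone itself, also gave no call among the integrins. Averaged over the 4 arms, 0 of 9 genes passed in edgeR and 0 had an unadjusted p under 0.05, against 7 of 12183 genes (0.0575%) called over all, 0.0492% higher and 0.00821% lower. The log2 fold changes lay between −0.16 (Itga6) and 0.03 (Itga9), and their 95% intervals together spanned −0.38 to 0.40. Itgb1 had 44.4 to 68.3 FPKM in the 12 libraries with E2 (median 61.1), against 45.1 to 66.4 FPKM in the 12 without (median 58.9). Itgb7 had medians of 63.7 FPKM with E2 and 64.3 FPKM without E2. Each same-numbered pair was also compared: Itgb1, Itgb2, Itgb7 and Itgal were higher with E2 in 6 of 12 pairs each, and Itga6 in 3 of 12.

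Within single arms, edgeR called 0 of 9 integrin genes for E2 in SH, ICI, Tamo or NC, and 0% of all genes. Itgb1 in the Tamo arm had the smallest p. Its levels were 66.1, 68.3 and 63.7 FPKM in Tamo_E2 replicates, against 58.6, 55.02 and 56.0 FPKM in Tamo replicates, without overlap. The log2 fold change was 0.22 ± 0.092 with an unadjusted edgeR p of 0.0253, the one integrin value under 0.05 in these arms, and an adjusted p of 0.9998. With the replicate block, the unadjusted edgeR p was 0.00996 and the adjusted p 0.409. No integrin gene showed a called difference of the E2 effect between the SH, ICI or Tamo arm and the NC arm. There edgeR called 0% of all genes, and without a block 0 of 9 integrins were under an unadjusted p of 0.05. With the replicate block, Itgb1 had an unadjusted edgeR p of 0.0243 for the Tamo arm (0.27, adjusted p = 0.43). Over these 14 comparisons of E2 and antiestrogens, none of the 260 alternative fits, DESeq2 and limma included, called an integrin gene.

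The replicate number went with the level of several integrin genes more clearly than E2 did. Itgb7 had 85.1 to 97.6 FPKM (median 88.8) in the 8 libraries numbered 1, against 58.2 to 66.9 FPKM (median 61.2) in the 16 numbered 2 or 3, and was highest in replicate 1 of 8 of 8 groups. The 2 sets of libraries did not overlap for Itgb7. Itgb2 was highest in replicate 1 of 8 of 8 groups (median 44.7 FPKM, against 37.5 FPKM), and so was Itga4 (median 5.11 FPKM, against 3.349 FPKM). Itga5 went the other way and was lowest in replicate 1 of 7 of 8 groups, with a median of 4.35 FPKM, against 5.14 FPKM in the libraries numbered 2 or 3. The labels do not say what the numbers mark, each group holds 1 library of each number, and this pattern was seen in the data and not tested.

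The SH values of Itga4 and Itgb2 were therefore read within the numbers. In the libraries numbered 1, Itga4 had 2.93 and 3.16 FPKM in the SH arm, against 4.68 to 6.598 FPKM in the 6 libraries of the other arms. In those numbered 2 and 3 it had 1.97 to 2.96 FPKM in the SH arm, against 2.39 to 4.58 FPKM in the 12 others, with overlap. Itgb2 had 59.4 and 61.2 FPKM in the SH arm against 41.7 to 45.4 FPKM among libraries numbered 1, and 40.3 to 47.8 FPKM against 35.2 to 42.2 FPKM among the rest. Itgb1 had 45.1 and 45.8 FPKM in the SH arm against 58.6 to 66.1 FPKM among libraries numbered 1, and 44.4 to 56.7 FPKM against 55.02 to 68.3 FPKM among the rest.

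Single libraries also stood apart. Itgal was highest in Tamo replicate 2 (25.0 FPKM) and lowest in Tamo replicate 3 (12.9 FPKM), and Itga6 had its extremes in the same libraries, at 10.6 and 4.89 FPKM. Itgav was highest in Tamo replicate 2, at 2.70 FPKM. Itga9 was under 1 FPKM in 2 libraries, SH_E2 replicate 2 (0.618 FPKM, 317 estimated counts) and Tamo replicate 3 (0.621 FPKM, 276 estimated counts), against 1.37 to 2.30 FPKM elsewhere.

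Among the 16 other integrin subunit genes, 4 passed the filter: Itga2b, Itgb3, Itga7 and Itga10. Itga2b and Itgb3 form the platelet fibrinogen receptor, and both were higher in SH. Itga2b had 36.2, 27.8 and 33.4 FPKM in SH_E2 and 38.7, 28.6 and 34.3 FPKM in SH replicates, against 14.3, 11.1 and 11.4 FPKM in NC_E2 and 14.1, 11.4 and 11.8 FPKM in NC replicates. Its lowest SH library was above the highest of the other 18, 14.7 FPKM. Itgb3 had 30.9, 22.8 and 20.7 FPKM in SH_E2 and 29.6, 22.4 and 17.7 FPKM in SH replicates, against 12.96, 9.27 and 5.45 FPKM in NC_E2 and 10.4, 8.82 and 4.84 FPKM in NC replicates. The log2 fold change over both E2 conditions was 1.37 ± 0.099 for Itga2b (edgeR adjusted p = 8.52e-09) and 1.43 ± 0.28 for Itgb3 (adjusted p = 0.00106), each higher in 6 of 6 same-numbered pairs. Pf4, the platelet chemokine among the megakaryocyte markers, differed in the same direction by 2.40 ± 0.17 (edgeR adjusted p = 7.77e-09). The summed megakaryocyte list was 34.3 to 48.4 FPKM in the SH arm, 6.63 to 13.7 FPKM in the ICI and Tamo arms and 6.86 to 10.9 FPKM in the NC arm. Most of that sum in the SH arm was Pf4 itself, so the sum restates Pf4 and is not a separate rise. The part of these markers in the integrin values was not tested.

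Itgb3 RNA stayed below the sum of Itga2b and Itgav in all 24 libraries, at 0.497 to 0.814 of that sum in the SH arm (median 0.732) and 0.358 to 0.916 outside it (median 0.68). Itga7, a laminin receptor subunit, had 2.36 to 3.81 FPKM in the SH arm, against 2.70 to 3.66 FPKM in the NC arm, and was not called (−0.15 ± 0.13, edgeR adjusted p = 0.489). Itga10, a collagen receptor subunit, had 0.536 to 1.59 FPKM in the SH arm, 0.382 to 0.94 FPKM in the ICI and Tamo arms and 0.273 to 0.898 FPKM in the NC arm. It passed against the antiestrogen arms (0.92 ± 0.22, edgeR adjusted p = 0.00304) and not against the NC arm (0.68 ± 0.26, adjusted p = 0.0693). Only libraries of the SH arm reached the 1 FPKM of the filter, so Itga10 entered the tests through the arm where it was high. Its SH comparisons are given as values and not as separate evidence of a rise. The other 12 subunit genes did not reach the filter.

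**Figure D4:**
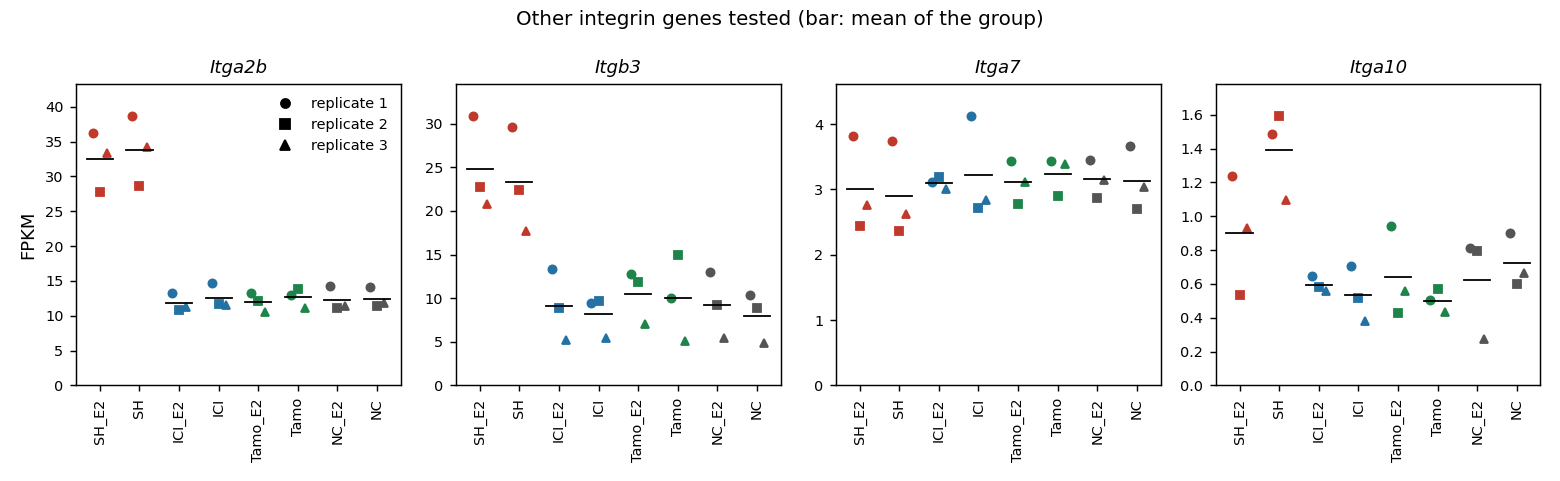
FPKM (linear axis, a range of its own in each panel) of the 4 other integrin subunit genes tested, in each library by group, with the replicate number as symbol and the group mean as bar. Itga2b had 27.8 to 38.7 FPKM in the SH arm against 10.6 to 14.7 FPKM elsewhere, and Itgb3 17.7 to 30.9 against 4.84 to 14.9 FPKM.

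Of 18 genes that switch integrins on or link them to actin, 14 were tested, and 3 rose and 2 fell in the SH arm against the NC arm, where 10.6% of all genes tested were called higher and 10.0% lower. Their median log2 fold change was 0.11, against −0.004 for all genes tested. Fermt3 (kindlin-3), which binds β subunit tails in blood cells, had 18.01 to 23.9 FPKM in the SH arm, against 7.75 to 11.6 FPKM in the NC arm, without overlap (1.10 ± 0.12, edgeR adjusted p = 1.62e-06). Skap2 and Fyb, adaptors on the path to Rap1, rose by 0.81 ± 0.090 (adjusted p = 1.94e-06) and 0.48 ± 0.11 (adjusted p = 0.00305). Rap1a, the small GTPase of that path, fell by 0.30 on the log2 scale (SE 0.089, edgeR adjusted p = 0.0198), with 66.5 to 90.2 FPKM in the SH arm against 81.8 to 111.8 FPKM in the NC arm. The other gene that fell was Flna (filamin A), which links β tails to actin (−0.44 ± 0.14, edgeR adjusted p = 0.0369).

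Of 24 genes of the adhesion complex and its kinases, 16 were tested, and 4 rose and 0 fell in the SH arm against the NC arm, beside 10.6% and 10.0% of all genes tested. Their median log2 fold change was 0.03. Syk, the tyrosine kinase that works downstream of β subunits and of the IgE receptor, had 2.09 to 2.67 FPKM in the SH arm, against 0.355 to 0.513 FPKM in the NC arm. That was a log2 fold change of 2.38 ± 0.17 (edgeR adjusted p = 8.5e-09). Between these arms, only the SH libraries reached the 1 FPKM of the filter. Syk, counted among the 4, may thus have entered the test through the arm where it was high. Its SH comparison is given as values and not as separate evidence of a rise. Zyx (zyxin), an actin-bound adhesion protein, differed by 0.50 ± 0.11 (adjusted p = 0.00223), Parvg (γ-parvin) by 0.39 ± 0.079 (adjusted p = 0.00118) and the kinase Lyn by 0.24 ± 0.081 (adjusted p = 0.0366).

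Among 22 integrin ligand genes, 10 were tested, with 1 higher and 2 lower in the SH arm than in the NC arm (10.6% and 10.0% of all genes tested) and a median log2 fold change of −0.20. Spp1 (osteopontin), a secreted ligand of Itgav, Itga4 and Itga9 integrins, fell to 100.5 to 249.2 FPKM in the SH arm, against 736.9 to 1003 FPKM in the NC arm. Its log2 fold change was −2.23 ± 0.21 (edgeR adjusted p = 2.75e-07). Lama5, the laminin α5 chain, changed by −1.55 ± 0.19 (adjusted p = 7.68e-06), and Adam15, a membrane protease with an integrin-binding domain, by 0.53 ± 0.056 (adjusted p = 9.59e-07). Mfge8, a bridging ligand of Itgav integrins, did not pass against the NC arm (−0.17 ± 0.073, edgeR adjusted p = 0.106) and did against the antiestrogen arms (−0.23 ± 0.063, adjusted p = 0.0107).

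Of 18 membrane partners and trafficking genes, 16 were tested, with 1 higher and 5 lower in the SH arm than in the NC arm (10.6% and 10.0% of all genes tested) and a median log2 fold change of −0.16. The tetraspanin Cd81, which sits beside integrins in the membrane, was the higher one (0.45 ± 0.083, edgeR adjusted p = 0.000498). Cd44, the hyaluronan receptor, changed by −1.02 ± 0.20 (adjusted p = 0.00108), Plaur, the urokinase receptor, by −1.09 ± 0.24 (adjusted p = 0.0026) and Rab5a, a GTPase of early endosomes that carries internalised integrins, by −0.30 ± 0.063 (adjusted p = 0.00183). The other genes called lower were Cd47 (−0.30 ± 0.088, edgeR adjusted p = 0.0181), a partner of β3 integrins, and Slc3a2 (−0.35 ± 0.11, adjusted p = 0.0278), which binds β1 tails. Of 14 transcription factors, 12 were tested, with 1 higher and 1 lower (10.6% and 10.0% of all genes tested) and a median of −0.02. Spi1 (PU.1), an ETS-family factor of myeloid genes, had 14.9 to 22.2 FPKM in the SH arm, against 8.74 to 11.9 FPKM in the NC arm (0.75 ± 0.088, edgeR adjusted p = 3.56e-06). Jun, an AP-1 subunit, had 3.85 to 7.52 FPKM in the SH arm, against 20.15 to 35.8 FPKM in the NC arm (−2.45 ± 0.20, edgeR adjusted p = 4.84e-08). For E2 averaged over the 4 arms, edgeR called 0 genes on each of these lists.

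**Figure D5:**
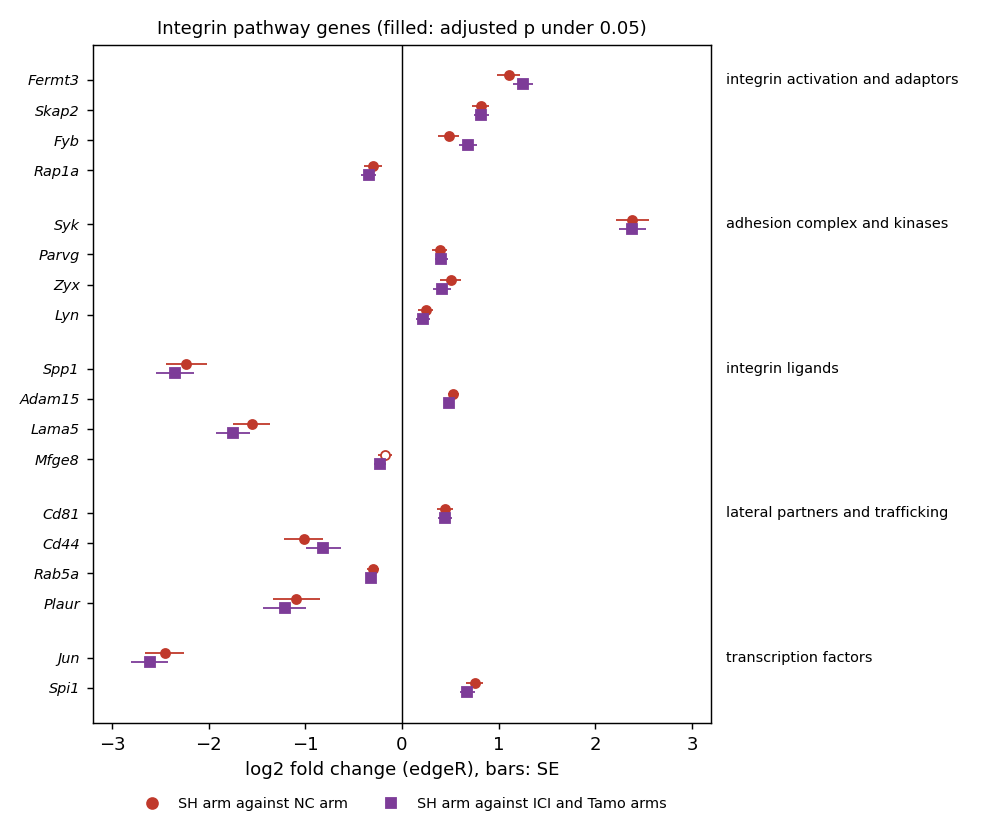
Log2 fold changes (x axis, bars: SE) of the genes named from the 5 pathway lists, for the SH arm against the NC arm and against the ICI and Tamo arms. Syk (2.38) and Fermt3 (1.10) lie furthest to the right, and Jun (−2.45) and Spp1 (−2.23) furthest to the left. Syk may have passed the filter only through the SH arm.

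For each integrin gene tested, the gene most like it over the 24 libraries was taken by Pearson's r of log2 CPM, as a description of libraries that share their groups and replicate numbers. Itgb7 was closest to Stbd1 (r = 0.983) and Mcrip1 (r = 0.971). Itgb1 was closest to Klf9 (r = 0.934), Itgb2 to Upp1 (r = 0.929) and Itgal to Wdfy3 (r = 0.935). For the other α subunits, Itga4 was closest to 4632404H12Rik (r = 0.918), Itga6 to Itsn2 (r = 0.913), Itga5 to Tob2 (r = 0.887), Itgav to Etv3 (r = 0.87) and Itga9 to Clec18a (r = 0.812). None of these was another integrin gene.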

How the data were processed

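RNA of 24 P815 libraries in 8 groups of 3 was analysed from 1 deposited table of 55385 genes. Per the submitters' processing notes, the authors used cutadapt, HISAT2 and GRCm38. The sources used here give no versions, quantifier or annotation. The authors deposited FPKM values (a placeholder of 0.0001 was read as 0) and, per the file headers, counts. The deposited counts were taken as estimated counts, since a count of exactly 4 made up 16.2% of values from 1 to 40. They came to 42.1 to 68.8 M per library.

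Genes with 1 FPKM or more in at least 3 libraries (12183 of 28735 with a count) were tested with edgeR 4.0.16 (quasi-likelihood, TMM, R 4.3.3), with a coefficient for each group, fitted on the 24 libraries without a replicate block. P-values are two-sided, with Benjamini-Hochberg adjustment across the genes tested and a call under 0.05. The code was tested on simulated data. Alternatives used DESeq2 1.42.0, limma 3.58.1 on log2(FPKM + 1) or log2(FPKM + 0.1), other filters and scaling, counts divided by 4, a replicate block, replicates 2 and 3 alone, the libraries of a contrast alone, and each library left out in turn.

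Equal replicate numbers were taken to pair libraries where their deviations from group means correlated over 0.1 in every pair. This held for SH against NC (r of 0.164 to 0.337). It also held for ICI against NC, Tamo against NC, Tamo_E2 against NC_E2 and ICI against Tamo with and without E2. E2 in each single arm and the difference of the E2 effect, Tamo minus NC, met it too. Values for these comparisons are from the fit without a block unless the block is named.

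The 10 genes and the lists were chosen with earlier results of these data known. Named beside them were the other integrin genes tested and, from each list (other subunits, activation and adaptors, adhesion complex and kinases, ligands, lateral partners and trafficking, transcription factors), up to 4 genes called in a comparison of SH with the smallest adjusted p. Flna, Cd47 and Slc3a2 were named after their values were seen. Promoters came from RefSeq (GRCm38.p6).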

Additional observations from a re-analysis of the deposited data

How the results depend on the processing

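Itgb1 was lower in SH than in NC under each of the 22 alternatives over both E2 conditions, with log2 fold changes of −0.43 to −0.33 and adjusted p of 1e-07 to 0.00814. For SH against NC without E2 (1 of 9 integrin genes called), the replicate block gave 3, no filter on low values gave 0, replicates 2 and 3 alone gave 0 and the libraries of the contrast alone gave 0. Leaving out 1 library gave 0 to 1. For SH_E2 against NC_E2 (1 called), the replicate block gave 3 and the libraries of the contrast alone gave 0. In that comparison only 2 of 3 pairs correlated over 0.1 (lowest r 0.0967). Among the groups of the SH and NC arms together, 17 of 18 same-numbered pairs did, so they missed the rule narrowly. Their median r was 0.19, against −0.167 for libraries of unlike number. For the SH arm against the NC arm (2 called), replicates 2 and 3 alone gave 1, leaving out 1 library gave 1 to 3, and the block gave 3. Against the antiestrogen arms (3 called) the block gave 4, in a fit that called 5093 of the 12183 genes. The block changed no other integrin count by over 1.5 times. The Esr1 difference ran from −0.132 (exact permutation p = 0.02) to −0.0638 with 1 library left out. Over all genes, edgeR called 1105 for SH against NC, 2572 with the block and 557 in the contrast alone. It called 1168 for SH_E2 against NC_E2, 2667 with the block, 554 in the contrast alone and 747 in replicates 2 and 3. For the SH arm against the NC arm it called 2517, and 4293 with the block. For averaged E2 the 7 calls became 14 with the block, 12 with DESeq2, 4 with no filter or filterByExpr, 3 with counts divided by 4, 2 with limma and 0 in replicates 2 and 3. Higher calls were 63.7% with limma on log2(FPKM + 1), against 51.5% in edgeR, for the SH arm against the NC arm. The median log2 fold change of all genes was 0.0411 in that limma fit and −0.00399 in edgeR. Against the antiestrogen arms it was 0.0488 and −0.00413. The limma values of single integrin genes include this shift. The causes were not tested. The median SE of 0.212 limits detection with 3 libraries a group.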
